A study of Mus musculus with 8 samples.

Results

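The genes described here are the noncoding host genes of small nucleolar RNAs (snoRNAs) that carry the names Gas5 and Snhg, taken as a named list of 9 (Gas5, Snhg1, Snhg3, Snhg4, Snhg5, Snhg6, Snhg8, Snhg12 and Snhg17). Of the 9, 6 matched a row of the 43629 Ensembl genes counted, namely Gas5, Snhg3, Snhg5, Snhg6, Snhg12 and Snhg17, and all 6 passed the filter on low counts in every comparison. Snhg1, Snhg4 and Snhg8 were not analysed here.

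Poly(A) RNA was sequenced from mouse 3T3-L1 cells, a pre-adipocyte line that forms fat cells in culture and that served here as differentiated adipocytes, with no animal tissue involved. Treatment began on day 8 of differentiation and lasted 24 h in each of 4 groups of 2 libraries. The groups were untreated cells, cells given A66 at 2 μM, cells given palmitate at 0.5 mM bound to albumin, and cells given palmitate plus A66 at those doses. A66 inhibits p110α, the PI3-kinase catalytic subunit that acts downstream of the insulin receptor, and palmitate is a saturated fatty acid. The doses and the untreated control are those of the sample labels. The study's methods describe the adipocytes sequenced with a lower A66 dose and a DMSO vehicle, and whether the control wells held DMSO was not settled here. Every direction below follows the treatment in the sample labels, and no measured transcript checks those labels, since A66 acts on a protein.

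A noncoding snoRNA host gene is transcribed and spliced like a messenger RNA, but its snoRNA products lie in its introns. Box C/D snoRNAs cut from them guide ribose methylation of ribosomal RNA and box H/ACA snoRNAs guide pseudouridylation. The spliced exons that remain carry no long reading frame, and ribosomes that engage them expose them to nonsense-mediated decay. Several such hosts begin with a terminal oligopyrimidine (TOP) tract, the run of pyrimidines at the start of ribosomal protein mRNAs through which mTOR, downstream of PI3-kinase, controls translation. Gas5 is also known to accumulate in growth-arrested cells.

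Library totals lay between 42247091 and 57529803 counts. Adipocyte identity was checked on 14 markers, all with counts in every library, whose summed level lay between 19890 and 23330 CPM (counts divided by the library total and scaled to a fixed total, with TMM factors). Of 11 preadipocyte and fibroblast markers, summed at 5240 to 6003 CPM, Dlk1 and Dpp4 had 0 counts in all libraries. The 8 macrophage markers summed to 13.3 to 19.0 CPM, with Adgre1 at 0 and Itgam, Ptprc and Mrc1 at no more than 3 counts in any library.

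The products and the starts of these hosts are shown first, the products because they define these genes as hosts and the starts because a TOP tract would lie there. Within the 6 host genes the annotation (GENCODE M21, mouse GRCm38) places 21 snoRNA genes that have a row of counts. All 21 lie in an intron of at least 1 host isoform. Gas5 holds 9, Snhg12 4, Snhg17 3, Snhg3 and Snhg5 2 each, and Snhg6 1. By their letters, 11 of the 21 carry a C box (TGATGA near the start) and a D box (CTGA near the end) and 4 carry an ACA box set 3 bases before the end. Of the other 6, the 3 of Snhg17 end in the letters ACA themselves, and the remaining 3, Gm22489 and Snord78 of Gas5 and Snora44 of Snhg12, met neither pattern.

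Snhg5 releases the near-identical pair Snord50a (chr9:88521529-88521600, minus strand) and Snord50b (chr9:88521797-88521868, minus strand). Both are 72 bases long and they differ at 1 position, C50A, counted from the 5′ end with the Snord50a base first. Snord87 (chr1:9942463-9942549, minus strand) comes from Snhg6, and Snora73b (chr4:132352322-132352526, minus strand), an H/ACA RNA of 205 bases, from Snhg3. Their sequences, from the GENCODE M21 transcripts, are given 5′ to 3′ with the C box, the D box and the ACA box in capitals.
Snord50a: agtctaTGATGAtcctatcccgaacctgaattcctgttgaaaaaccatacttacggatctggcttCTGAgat
Snord50b: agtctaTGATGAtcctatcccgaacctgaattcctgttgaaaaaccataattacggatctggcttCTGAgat
Snord87: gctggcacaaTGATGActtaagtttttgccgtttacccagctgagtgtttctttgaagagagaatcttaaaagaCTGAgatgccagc
Snora73b: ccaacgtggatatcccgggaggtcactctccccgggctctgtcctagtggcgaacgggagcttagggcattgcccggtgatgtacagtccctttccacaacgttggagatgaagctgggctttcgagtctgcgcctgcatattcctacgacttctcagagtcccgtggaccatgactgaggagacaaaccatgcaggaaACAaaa

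The libraries were made with oligo-dT selection, which enriches RNA with a poly(A) tail, and mature snoRNAs have no such tail. Of the 21 snoRNA genes, 17 had 0 counts in all libraries. All 17 lie over exonic bases of a host isoform on the same strand, as do 19 of the 21, and a read there matches both genes. How counting treated such reads is not given in the sources used here, and its part in the zeros was not tested. Snora73b had the most, 46 to 79 counts a library, followed by Snord87 with 4 to 13, and these are the 2 that share no exonic bases with their host. The others with counts were Snora73a with 2 to 10 and Snora16a of Snhg12 with 1 to 4. The values below describe the polyadenylated host transcripts, and the snoRNAs themselves were not measured at a useful depth.

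**Figure D1:**
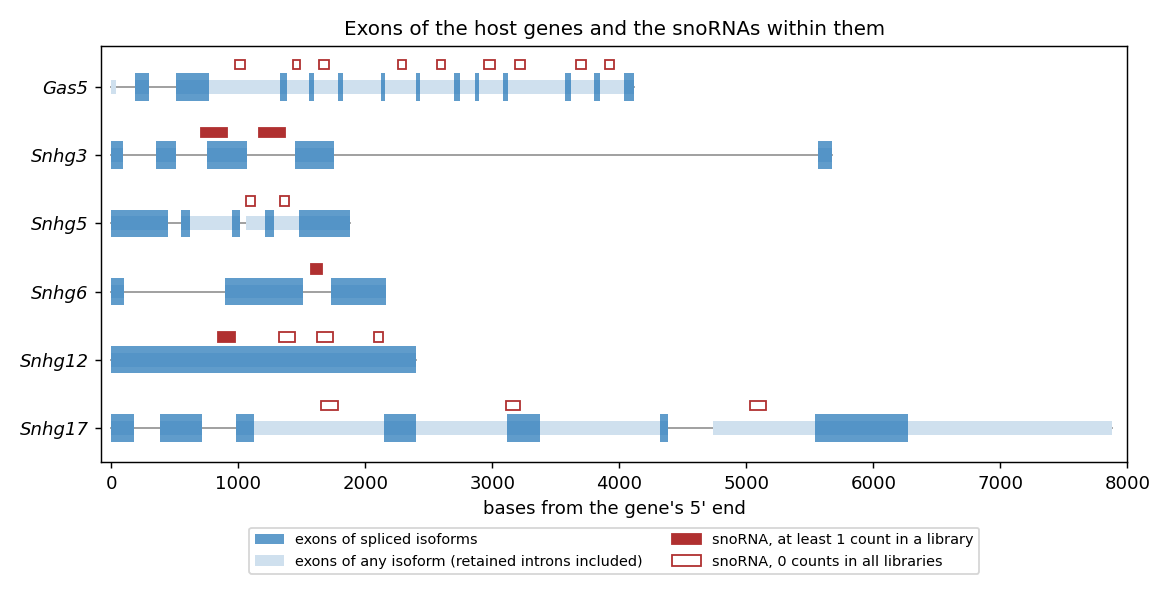
Exons of the 6 host genes against distance in bases from the gene's 5′ end, with dark blue for spliced isoforms of more than 1 exon, light blue for exons of any isoform (retained introns included) and red boxes for snoRNA genes, filled where at least 1 library had a count. The 9 snoRNA genes of Gas5 lie between exons of its spliced isoforms and are all at 0 counts, whereas both snoRNA genes of Snhg3 are filled.

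The start of each gene was read from the RefSeq promoter windows on GRCm38.p6, which gave 7 windows for 5 of the 6 genes (Gas5 and Snhg17 with 2 starts each). A tract was taken as a C within 10 bases of the annotated start that, with the C or T letters following it unbroken, makes at least 6 letters, on the strand of the gene only. Where several C letters qualify, the stretch from the one nearest to the start is marked. The window printed runs from 10 bases before the annotated start to 19 after it, with the tract in capitals where there is one. The first Gas5 line is the downstream of its 2 starts.
Gas5, chr1:161035156-161035185, plus strand: ccatctcagCCTTTCggagctgtgcggcat
Snhg12, chr4:132308668-132308697, plus strand: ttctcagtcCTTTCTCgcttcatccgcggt
Snhg5, chr9:88522878-88522907, minus strand: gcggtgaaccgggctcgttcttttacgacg
Snhg3, chr4:132353667-132353696, minus strand: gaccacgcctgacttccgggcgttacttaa
Snhg17, chr2:158361490-158361519, minus strand: aagaccacagtttcctgtcgcgtggatgtg

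Gas5 and Snhg12 thus held a tract, 2 of the 5 genes and 2 of the 7 windows (28.6%). Both marked stretches open 1 base before the annotated start, and in Snhg12 the unbroken run goes 2 letters further upstream and is 9 letters long in all. The upstream Gas5 start, Snhg3, Snhg5 and both Snhg17 starts held none. Snhg5 has a run of 7 pyrimidines within reach of its start, which begins with T and holds 5 letters from its C. The printed Snhg17 window has a run of 6 that begins with T at the annotated start and holds 3 letters from its first C. By the same rule 19.2% of all 32851 promoter windows held a tract, against 34 of the 71 windows of cytosolic ribosomal protein genes (47.9%). Whether these runs act as TOP tracts in adipocytes was not measured.

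Gas5 (ENSMUSG00000053332, chr1:161034422-161038539, plus strand) was the most abundant member by counts. It had 78.3 and 78.8 CPM in the untreated libraries, 74.0 and 81.3 given A66, 80.3 and 74.9 given palmitate, and 84.8 and 79.2 given both. The 2 untreated libraries lie inside the range of the A66 and of the palmitate libraries, and only the palmitate plus A66 libraries lie wholly above the untreated ones. Between 43.3% and 46.9% of the counts on the 6 genes fell on Gas5 in each library. Its mean over the 8 libraries stood at the 80.5th percentile of the genes tested.

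Snhg17 and Snhg5 followed. Snhg17 (ENSMUSG00000085385, chr2:158353700-158361580, minus strand), host of 3 snoRNA genes listed under predicted-gene names, had 38.1 and 41.6 CPM untreated, 40.0 and 40.6 given A66, 37.8 and 34.8 given palmitate, and 41.98 and 37.5 given both. The palmitate libraries lie below both untreated libraries and both A66 libraries. Snhg5 (ENSMUSG00000097195, chr9:88521050-88522929, minus strand), host of the Snord50 pair, had 30.7 and 33.4 CPM untreated, 31.7 and 33.5 given A66, 29.5 and 32.5 given palmitate, and 32.4 and 34.4 given both. Its groups overlap in every comparison.

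The other 3 hosts had fewer counts, from 277 to 531 a library. Snhg6 (ENSMUSG00000098234, chr1:9941959-9944118, minus strand), host of Snord87, had 9.07 and 9.30 CPM untreated, 10.3 and 9.80 given A66, 8.92 and 9.83 given palmitate, and 9.32 and 9.96 given both. Snhg12 (ENSMUSG00000086290, chr4:132308623-132311024, plus strand), host of Snora16a, Snora44, Snora61 and Snord99, had 8.86 and 8.21 CPM untreated, 9.48 and 8.99 given A66, 8.64 and 8.52 given palmitate, and 10.0 and 10.1 given both. The palmitate plus A66 libraries are the highest of all 8 for Snhg12.

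Snhg3 (ENSMUSG00000085241, chr4:132348014-132353686, minus strand), host of Snora73a and Snora73b, had the fewest counts. It had 7.94 and 7.32 CPM in the untreated libraries, 5.35 and 6.71 given A66, 6.22 and 6.73 given palmitate, and 6.53 and 5.80 given both. Both untreated libraries lie above the other 6. The highest library was 1.48 times the lowest, the widest range of the 6 genes, which otherwise spanned 1.14 to 1.23 times.

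**Figure D2:**
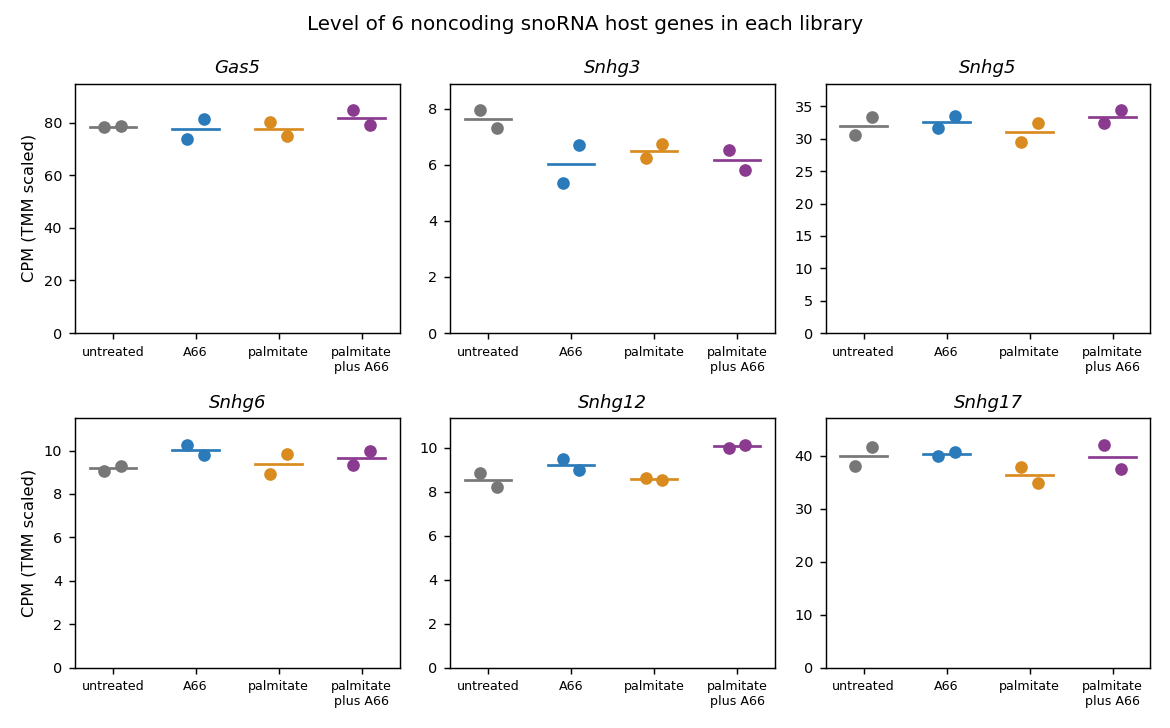
Level in CPM with TMM scaling (linear axes from 0) of the 6 host genes in each of the 8 libraries, with points for libraries and bars for the mean of the 2 libraries of a group. Gas5 stays between 74.0 and 84.8 CPM, Snhg3 is highest in the 2 untreated libraries, and Snhg12 is highest in the 2 palmitate plus A66 libraries.

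Levels can be ranked between genes only per length, and the length is uncertain here because many isoforms keep introns (20 of the 25 annotated Gas5 isoforms). Per kilobase of all exonic bases, Gas5 was highest at 21.0 ± 0.912 CPM (SD over 8 libraries) and Snhg5 next at 18.6 ± 0.927 CPM, with ranges that overlap. Snhg6 followed at 8.34 ± 0.411, Snhg3 at 6.67 ± 0.830, Snhg17 at 5.54 ± 0.346 and Snhg12 at 3.79 ± 0.290 CPM per kilobase. In that order the ranges of Snhg6 and Snhg3, and of Snhg3 and Snhg17, also overlap, while Snhg12 lies below all others. Per kilobase of the median isoform, the order changed. Gas5 then stood at 125.5 ± 5.45 CPM per kilobase, and Snhg5 at 38.8 ± 1.93 overlapped with Snhg17 at 37.3 ± 2.33. Snhg6 at 17.1 ± 0.842 and Snhg3 at 15.1 ± 1.87 overlapped too, above Snhg12 at 9.94 ± 0.760. Gas5 at the top and Snhg12 at the bottom held on both scales.

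The A66 comparison asks how blocking p110α for 24 h alters the transcripts of adipocytes fed no palmitate. None of the 6 host genes passed an adjusted p of 0.05 in the quasi-likelihood F test of edgeR, adjusted by Benjamini-Hochberg over the 14158 genes tested, of which 1.84% did (1 of the 6 had an unadjusted p under 0.05, against 12.8% of all genes). DESeq2 gave an adjusted p to 3 of the 6, Gas5, Snhg5 and Snhg17, and called 0 of those, while its own filter on low counts left Snhg3, Snhg6 and Snhg12 without one. Snhg3 had the lowest fold change, 6.03 ± 0.964 CPM with A66 against 7.63 ± 0.433 CPM untreated (SD, n = 2), a log2 fold change of -0.34 with a 95% interval from -0.60 to -0.073 (edgeR adjusted p = 0.232). Without A66 replicate 1, its lowest library, the log2 fold change of Snhg3 was -0.18, and without A66 replicate 2 it was -0.50. For Gas5 the log2 fold change was -0.014 with a 95% interval from -0.12 to 0.088, which corresponds to 0.923 to 1.06 times the untreated level. Snhg5 stood at 0.025 (interval -0.11 to 0.16) and Snhg17 at 0.018 (interval -0.10 to 0.14), both near 0. Snhg6 at 0.13 (interval -0.078 to 0.34) and Snhg12 at 0.12 (interval -0.097 to 0.34) lay above 0 with intervals that include it. These intervals leave room for small changes in either direction, and a p that misses the threshold does not show that the genes were unaltered. The A66 and untreated libraries did not overlap for 3 of the 6, Snhg6 and Snhg12 higher and Snhg3 lower, beside 42.7% of all genes tested. The median over the 6 was 0.022, and over all genes tested -0.0011. That of the 6 was -0.026 without untreated replicate 1, -0.0018 without A66 replicate 2, 0.078 without untreated replicate 2 and 0.059 without A66 replicate 1, so its sign rests on single libraries.

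Neighbouring genes bear on the Snhg3 counts. Snhg3 overlaps Rcc1, the exchange factor of the Ran GTPase, which lies on the same strand and shares 135 exonic bases with it, and reads in those bases cannot be assigned to one gene. The snoRNA genes with a row share exonic bases with their hosts in the same way, 669 in Gas5, 469 in Snhg12, 376 in Snhg17, 159 in Snhg3 and 144 in Snhg5. Rcc1 itself had a log2 fold change of -0.077 with A66 (edgeR adjusted p = 0.818), with 13.9 to 18.3 CPM over the 8 libraries. Snhg3 also shares 705 exonic bases with Gm17300 on the opposite strand, which had 0 to 4 counts a library. Snora73b, counted as a gene of its own in a Snhg3 intron, stood at -0.23 (edgeR adjusted p = 0.811). Snhg6 shares 127 exonic bases with Mcmdc2 on the opposite strand, and Mcmdc2 had at most 3 counts in any library. The strand setting used in counting is not given in the sources used here.

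With palmitate the host genes were again not called. None of the 6 passed the adjusted threshold against untreated cells in edgeR, where 1.17% of 14587 genes did (1 of the 6 had an unadjusted p under 0.05, against 12% of all genes, and DESeq2 called 0). That gene was Snhg17, at 36.3 ± 2.13 CPM with palmitate against 39.8 ± 2.46 CPM untreated (SD, n = 2), a log2 fold change of -0.14 with an interval from -0.27 to -0.0064 (edgeR adjusted p = 0.381). With 1 library left out it ran from -0.20 (without palmitate replicate 1) to -0.071 (without untreated replicate 2), and 0 of the 6 had an unadjusted p under 0.05 without untreated replicate 2, without palmitate replicate 2 or without A66 replicate 1. Snhg3 had a log2 fold change of -0.23 with an interval from -0.49 to 0.026 (edgeR adjusted p = 0.478). Gas5 at -0.017, Snhg5 at -0.051, Snhg6 at 0.028 and Snhg12 at 0.011 were all nearer to 0. Groups did not overlap for Snhg3 and Snhg17, both lower, 2 of 6 beside 40.5% of all genes. The median of the 6 was -0.034, and it was -0.065 without untreated replicate 1 and -0.058 without palmitate replicate 2.

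Adding A66 to palmitate tests the inhibitor in cells given palmitate. Again 0 of the 6 passed the adjusted threshold in edgeR against palmitate alone, where 2.81% of all genes did (2 of the 6 had an unadjusted p under 0.05, against 14.4%, and DESeq2 called 0). Snhg12 was at 10.1 ± 0.0861 CPM against 8.58 ± 0.0862 CPM with palmitate (SD, n = 2), a log2 fold change of 0.23 with an interval from 0.022 to 0.44 (edgeR adjusted p = 0.282). Snhg17 was at 39.8 ± 3.16 against 36.3 ± 2.13 CPM, a log2 fold change of 0.13 with an interval from 0.00095 to 0.26 (edgeR adjusted p = 0.341), which became 0.049 without palmitate plus A66 replicate 1 and 0.21 without palmitate plus A66 replicate 2. Its libraries overlapped all the same, and only those of Snhg12 did not, 1 of 6 beside 44.3% of all genes. Gas5 at 0.079, Snhg5 at 0.11, Snhg6 at 0.041 and Snhg3 at -0.070 had intervals that include 0. The median of the 6 was 0.093.

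Palmitate plus A66 was also set against each of the other groups. Against A66 alone, 0 of the 6 passed in edgeR (2.73% of all genes did), 0 had an unadjusted p under 0.05 (14.6% of all genes), and DESeq2 called 0. The log2 fold changes there ran from -0.058 for Snhg6 to 0.12 for Snhg12. The libraries of Snhg12 did not overlap, 1 of the 6 beside 46.6% of all genes. Against untreated cells, where 7.5% of all genes passed, 0 of the 6 did in edgeR and 0 in DESeq2, and 2 had an unadjusted p under 0.05 (20.8% of all genes). Those were Snhg3 at a log2 fold change of -0.30 (interval -0.57 to -0.041, edgeR adjusted p = 0.164) and Snhg12 at 0.24 (interval 0.030 to 0.45, edgeR adjusted p = 0.170). Groups did not overlap for 4 of the 6 here, Gas5, Snhg6 and Snhg12 higher and Snhg3 lower, beside 49.7% of all genes. The comparisons share the untreated, the palmitate or the combined libraries, so the values of one gene in them are not separate evidence.

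**Figure D3:**
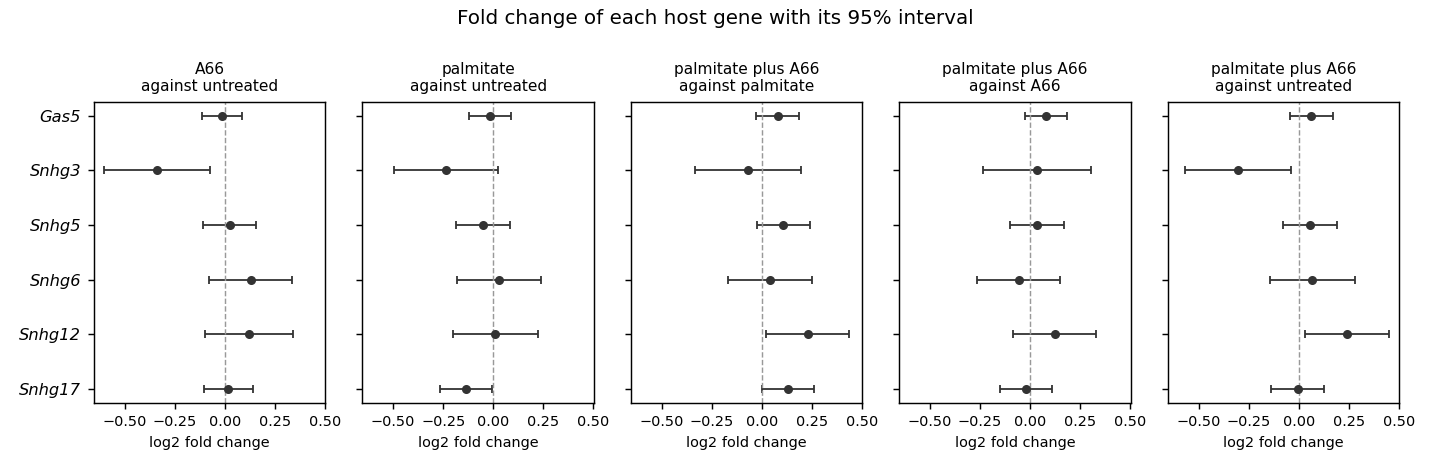
Log2 fold change of each host gene in 5 comparisons, with 95% intervals from edgeR. No gene passes an adjusted p of 0.05, Snhg3 lies furthest below 0 with A66 at -0.34, and Snhg12 furthest above it with palmitate plus A66 against untreated at 0.24.

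In palmitate plus A66 the adipocyte markers were lower, with 8 of 14 called lower and 0 higher against untreated cells in edgeR, beside 7.5% of all genes called. Their summed level was 19890 and 21100 CPM there, 23330 and 23200 CPM in untreated cells, 23330 and 22570 CPM with A66, and 20660 and 21940 CPM with palmitate. The macrophage list summed to 17.9 and 19.0 CPM with palmitate plus A66 and to 13.3 and 14.2 CPM untreated, with Cd68 and Cd14, 2 of its 4 tested genes, called higher in edgeR. The other 2 tested, Lyz2 and Csf1r, had log2 fold changes below 0 and were not called, with Lyz2 at 2.14 and 2.83 CPM against 2.99 and 2.96 CPM untreated. Those not tested, Adgre1, Itgam, Ptprc and Mrc1, had no more than 3 counts in any library. Preadipocyte and fibroblast markers summed to 5240 and 5475 CPM with palmitate plus A66 and 5628 and 5413 CPM untreated, with Vim and Ly6a called higher of 9 tested and 0 lower. In such bulk samples, fewer cells of a type and less RNA per cell cannot be told apart. Their part in the host gene values was not tested.

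Whether the response to A66 differed with palmitate was tested directly as an interaction. None of the 6 passed in edgeR (0.00686% of all genes did), and 0 had an unadjusted p under 0.05 (7.92% of all genes). DESeq2 gave none of the 6 an adjusted p here. The largest estimate was that of Snhg3, 0.27 with an interval from -0.11 to 0.64, which includes 0 and leaves room for a difference in either direction. It was 0.11 without A66 replicate 1 and 0.44 without A66 replicate 2. The estimate for Gas5 was 0.095, with a narrower interval from -0.055 to 0.25. The A66 response averaged over both palmitate states was added after the values had been seen. For Snhg12 it was 0.17 (interval 0.025 to 0.32, edgeR adjusted p = 0.191), and for Snhg3 it was -0.21 (interval -0.39 to -0.018, edgeR adjusted p = 0.227), with -0.12 when A66 replicate 1 was left out and -0.29 when A66 replicate 2 was. None of the 6 passed in this average, in which 4.97% of all genes did and 2 of the 6 had an unadjusted p under 0.05 (17.9% of all genes), with 0 called by DESeq2.

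Other noncoding hosts of snoRNAs, outside the 9 genes above, were also listed. Of 15 listed, 11 had a row and 9 were tested. Their median log2 fold change with A66 was 0.20 (0.11 without untreated replicate 1 and 0.37 without untreated replicate 2). In edgeR 3 of the 9 rose with A66 while 0 fell, beside 1.84% of all genes called. They were 1110038B12Rik (0.28 ± 0.0597, log2 ± SE, adjusted p = 0.0135), 2410006H16Rik (0.26 ± 0.0567, adjusted p = 0.0142) and Zfas1 (0.30 ± 0.0678, adjusted p = 0.0186), the last named after its values had been seen. With either A66 library left out 0 of the 9 were called in edgeR, and without untreated replicate 1 only 1 was. With palmitate plus A66 against palmitate, 1110038B12Rik (0.29, adjusted p = 0.00491) and Zfas1 (0.24, adjusted p = 0.0371) rose in edgeR. With palmitate alone 2410006H16Rik rose (0.29, edgeR adjusted p = 0.0165). The difference between these hosts and the 6 described was not tested.

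Genes that host snoRNAs and also encode a protein were listed as well. Of 40 listed, with a median of 0.11, 14 rose with A66 in edgeR and 0 fell, beside 1.84% of all genes called. The count was 4 without A66 replicate 1, 7 without A66 replicate 2 and 13 without untreated replicate 1, and without untreated replicate 2 it was 19 with 1 lower. Of those 40, 22 are ribosomal protein genes, which account for 12 of the 14, and the other 18 account for 2, Npm1 and Eef1b2, the latter named after its values had been seen. Examples are Rps3 (0.24 ± 0.0409, edgeR adjusted p = 0.00167) and Rpl21 (0.23 ± 0.0380, edgeR adjusted p = 0.00167). Over the complete list of 79 cytosolic ribosomal protein genes, 39 rose with A66 and 0 fell in edgeR, beside 1.84% of all genes called. Their median was 0.16. These directions rest on the treatment labels alone, and every sign would turn if the labels of the A66 and untreated libraries were exchanged. Rps21, at a mean of 161 CPM with A66 and 108 CPM untreated, and Rpl36, at 144 and 101 CPM, had the smallest p, with log2 fold changes of 0.57 ± 0.0516 (edgeR adjusted p = 5.89e-07) and 0.52 ± 0.0548 (edgeR adjusted p = 6.67e-06). The count of 39 became 33 with library size scaling and 33 with a length correction, and it was 15 without A66 replicate 1, 17 without A66 replicate 2, 39 without untreated replicate 1 and 56 with 1 lower without untreated replicate 2. With palmitate alone the median of the 79 was 0.10, with 0 called in edgeR, 41 at an unadjusted p under 0.05 (12% of all genes) and 1 called in DESeq2. With A66 added to palmitate the median was 0.017, and 1 of the 79 rose in edgeR, beside 2.81% of all genes called. DESeq2 called 2 of the 79 higher and 1 lower there. The interaction lay below 0 for 77 of the 79, with a median of -0.14. Of the 79, 0 were called in edgeR and 43 had an unadjusted p under 0.05 (7.92% of all genes). DESeq2 called 6 of them lower, beside 21 of all 14587 genes called. For the 40 protein-coding hosts the median with A66 added to palmitate was 0.044 and that of the interaction -0.081.

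**Figure D4:**
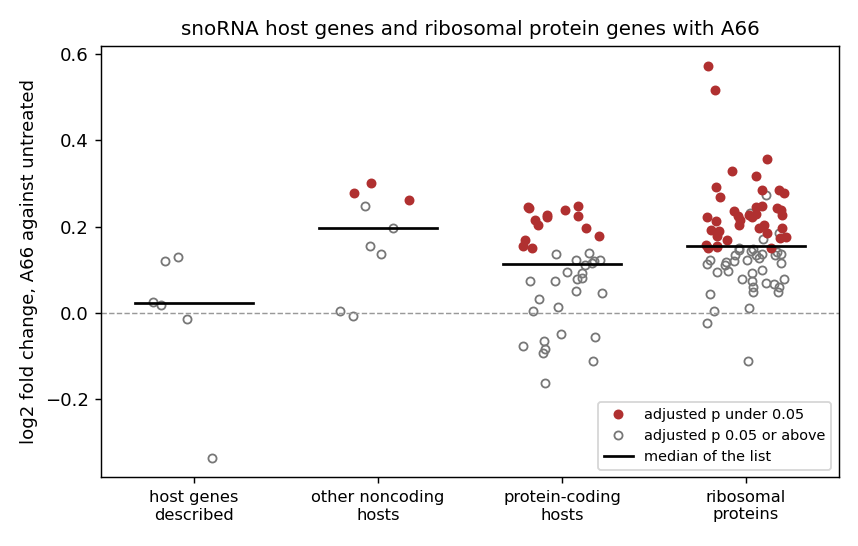
Log2 fold change with A66 against untreated cells for the 6 host genes described, 9 other noncoding hosts, 40 protein-coding hosts and 79 ribosomal protein genes, with 1 point per gene, red for an adjusted p under 0.05 in edgeR and black bars for the medians. The medians are 0.022, 0.20, 0.11 and 0.16, and no point of the first list is red.

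The proteins that handle snoRNAs and host transcripts were for the most part not called. Of 19 genes for box C/D and H/ACA particle proteins and their assembly, 0 were called with A66 in edgeR and 0 of the 16 given an adjusted p in DESeq2, and 3 had an unadjusted p under 0.05 in edgeR, a share near the 12.8% of all genes. The smallest p there belonged to Dkc1, the pseudouridine synthase of H/ACA particles (log2 fold change -0.16, adjusted p = 0.128), and to Nolc1, a nucleolar phosphoprotein (-0.11, adjusted p = 0.327). Of 20 genes of nonsense-mediated decay, 1 was called with A66 beside 1.84% of all genes, Upf3b, which fell by 0.24 on the log2 scale (edgeR adjusted p = 0.0217). Upf3b links exon junctions to the decay machinery. Upf3b was also lower with palmitate plus A66 against untreated cells (-0.24, edgeR adjusted p = 0.011), a comparison that shares the untreated libraries. With palmitate alone it stood at -0.18 (edgeR adjusted p = 0.159). With A66 added to palmitate, 0 of the 20 were called in edgeR. The interaction of Upf3b was 0.18 (edgeR adjusted p = 0.609), and its A66 average was -0.16 (edgeR adjusted p = 0.0268). Without A66 replicate 2, 0 of the 20 were called with A66, and without untreated replicate 2, 2 were, both lower. Of 17 regulators of TOP mRNAs, which include mTOR, its partners and the LARP proteins, 16 were tested and 0 were called with A66 in edgeR and 0 in DESeq2, with 1 at an unadjusted p under 0.05 (12.8% of all genes). The smallest p was that of Eif4ebp1, the translational repressor that mTOR phosphorylates (0.10, edgeR adjusted p = 0.294). Without untreated replicate 2, 1 of the 16 was called higher.

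Profiles over the 8 libraries were centred on each gene's own mean of log2 (CPM plus 0.5). Their root mean square size ran from 0.0582 for Gas5 to 0.156 for Snhg3, and that of the mean profile of the 6, in which opposite deviations cancel, was 0.0371, with its highest library among palmitate plus A66 (0.052) and its lowest among palmitate (-0.062). Gas5 deviated from that mean profile by a root mean square of 0.0449 and Snhg5 by 0.0526, whereas Snhg3 deviated by 0.149. The 5 genes outside the list nearest to that mean profile over the 8 libraries were Tle3 (root mean square difference 0.0166), Stk25 (0.0183), Dstyk (0.019), Xpo7 (0.02) and Zmym5 (0.0205). A gene with a flat profile would lie 0.0371 from the mean profile, nearer than any of the 6 hosts. These 5 are thus the nearest of all genes tested to an almost flat profile. Whether they share anything with the hosts was not tested. In sum over the 6 genes, the host transcripts took 0.0167% to 0.0184% of all counts in each library, or 167.2 to 185.0 CPM.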

How the data were processed

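Poly(A) RNA was sequenced by the authors as paired reads from stranded oligo-dT libraries, in 8 libraries of 4 groups. The authors aligned the reads to GRCm38 with TopHat2 2.0.11, counted them per Ensembl gene with HTSeq and deposited those raw counts, not normalized. The annotation release, the strand setting of counting and the treatment of reads shared by overlapping genes are not given in the sources used here. The file also holds the authors' own DESeq2 comparison (fold changes and p-values), which was not used. Groups came from the treatment in the sample labels. The methods speak of biological repeats, so the replicates stand for 2 cultures a group. The quasi-likelihood fit of edgeR also draws on the spread of other genes. Its p-values and intervals thus do not rest on those 2 cultures alone. For Snhg3 with A66, DESeq2 gave a larger standard error than edgeR.

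Counts were matched to symbols, coordinates, exonic length and GC content in GENCODE M21 (42548 of 43629 rows, 97.5%). Tests used R 4.3.3 and edgeR 4.0.16 with TMM scaling, filterByExpr (minimum count 10), quasi-likelihood F tests, two-sided, and Benjamini-Hochberg adjustment over all genes tested, with a threshold of 0.05. A66 against untreated was fitted on the 4 libraries without palmitate, and the other comparisons and the interaction on all 8. CPM were scaled with the TMM factors of the 8 libraries. Intervals are 95% intervals of the fit. The script was tested on simulated counts. Between the libraries of a group the chi-square per gene averaged 6.15 to 8.99, above counting noise.

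The alternatives were RLE scaling, library size scaling, DESeq2 1.42.0 (Wald test), no low-count filter, at least 10 counts in every library, the replicate number as a block (alone and with a GC correction), GC and length corrections (loess trends, span 0.4), other libraries in the fit, and each library left out. Per-length levels on the median isoform and the A66 average over both palmitate states were added after seeing the values. All 9 genes were to be named whatever their values, with at most 2 genes with the smallest p of every other list in a comparison and the 5 genes with the most similar profile. The genes and the lists were chosen with earlier results of these data known. Promoter windows (250 bases before to 50 after the start) came from RefSeq on GRCm38.p6. Figures and tables were made with Python 3.11.15.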

Additional observations from a re-analysis of the deposited data

How the results depend on the processing

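None of the 6 host genes passed an adjusted p of 0.05 in any of the 7 comparisons under any of the 19 alternative settings, as far as an adjusted p was given, which held for 711 of 720 values, and the lowest was 0.114. The 9 without one were all in DESeq2, those of Snhg3, Snhg6 and Snhg12 with A66 and of all 6 genes in the interaction. The sign of Snhg3 with A66, and of Snhg12 with A66, with palmitate plus A66 against palmitate and with palmitate plus A66 against untreated, stayed the same under every setting run. Of the 720 values, 24 changed sign, none of them past the threshold. With a correction they were palmitate for Snhg12 (-0.0099, length), and palmitate plus A66 against untreated for Snhg17 (0.0015, length, and 0.0011, GC).

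The rest changed sign with 1 library left out, and the log2 fold changes then ranged as follows. With A66, Gas5 ran from -0.080 to 0.053, Snhg5 from -0.034 to 0.093 and Snhg17 from -0.042 to 0.088. With palmitate, Gas5 ran from -0.069 to 0.036, Snhg5 from -0.12 to 0.018, Snhg6 from -0.040 to 0.097 and Snhg12 from -0.045 to 0.064. With palmitate plus A66 against palmitate, Snhg3 ran from -0.16 to 0.013 and Snhg6 from -0.028 to 0.11. Against A66, Snhg3 ran from -0.12 to 0.20, Snhg5 from -0.0099 to 0.079 and Snhg17 from -0.10 to 0.057. Against untreated, Snhg5 ran from -0.00070 to 0.12 and Snhg17 from -0.085 to 0.072. In the A66 average, Gas5 ran from -0.0033 to 0.066. Other values given above kept their sign but moved by over 1.5 times. With A66, Snhg12 ran from 0.068 (without untreated replicate 2) to 0.17. With palmitate plus A66 against palmitate, Gas5 ran from 0.030 (without palmitate plus A66 replicate 1) to 0.13 (without palmitate replicate 1) and Snhg5 from 0.039 (without palmitate replicate 1) to 0.18 (without palmitate replicate 2). Against A66, Snhg6 ran from -0.11 (without palmitate plus A66 replicate 2) to -0.011 (without replicate 1 of that group). In the interaction, Gas5 ran from 0.026 (without A66 replicate 1) to 0.16 (without A66 replicate 2).

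The count of the 6 with an unadjusted p under 0.05 also rested on the method and on single libraries. In DESeq2 with no library left out it was 0 with A66 (1070 of 14158 genes) and 0 with palmitate (1319 of 14587). For palmitate plus A66 it was 0 against palmitate (1598 of 14587) and stayed at 2 against untreated (2477 of 14587). In the A66 average DESeq2 gave 1 (2076 of 14587). A length correction in edgeR gave 0 with palmitate. The counts that follow are from edgeR with 1 library left out. With A66 it was 0 without untreated replicate 1 or without A66 replicate 1. With palmitate plus A66 it was 0 against palmitate without palmitate plus A66 replicate 1, and 0 against untreated without palmitate plus A66 replicate 2. In the A66 average it was 0 without A66 replicate 1 and 3 without palmitate replicate 1. In the interaction it was 1 without A66 replicate 2 or without palmitate plus A66 replicate 2, and against A66 it was 1 without A66 replicate 2.

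The number of genes called over all genes varied more. With 1 library left out it ran from 98 (without A66 replicate 2) to 635 (without untreated replicate 2) for A66, from 71 to 245 for palmitate, from 147 to 494 for palmitate plus A66 against palmitate, from 107 to 502 against A66, from 437 to 1236 against untreated, from 0 to 10 for the interaction and from 412 to 779 for the average. With no filter on low counts the calls were 459 for A66, 396 for palmitate, 652 against palmitate, 664 against A66 and 91 for the interaction. With only the 4 libraries compared in the fit there were 689 against A66. The interaction had 21 calls with DESeq2 and 2 with library size scaling, with GC correction, with length correction and with the replicate block plus GC correction. Library size scaling turned the split of A66 calls from 152 higher and 109 lower to 126 and 154, that of palmitate from 92 and 79 to 83 and 105, that of palmitate plus A66 against palmitate from 142 and 268 to 107 and 350, that against A66 from 213 and 185 to 180 and 266, that against untreated from 553 and 541 to 367 and 859, and that of the average from 317 and 408 to 242 and 568. The cause of these differences was not tested.

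The replicate numbers do not pair the samples, as the deviations of same-numbered libraries correlated between -0.0743 and 0.0888 over 12519 genes. With the replicate number as a block, 282 genes were called for A66, 3 for the interaction and 0 of the 6 host genes in any comparison. With 2 libraries a group and 277 to 531 counts a library on Snhg3, Snhg6 and Snhg12, standard errors there were 0.0997 to 0.130 on the log2 scale in the comparisons of 2 groups, against 0.0488 to 0.0515 for Gas5.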
